A study of Mus musculus with 17 samples.

Results

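The 10 genes Hk1, Hk2, Gpi1, Pfkl, Pfkp, Aldoa, Gapdh, Eno1, Pkm and Ldha encode enzymes of glycolysis and of the conversion of pyruvate to lactate. They were chosen by name, with earlier results of these data known. They are 10 of the 21911 protein-coding genes of the mouse annotation (GENCODE vM21 on GRCm38, the assembly also called mm10). For each of them, every H3.3 island that overlapped the gene body or the 5 kb on either side of it was taken, and this stretch is called the window of the gene. An island is a stretch of the genome in which the authors' caller found more ChIP-seq reads than the background, and it is listed with its start, its end and the count of reads in it.

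Chromatin came from lenses of newborn CD1 mice, for which the labels name no mutation or treatment, dissected into lens epithelium, the cell layer at the front of the lens, and lens fibers, the elongated cells that form its bulk. An antibody against H3.3 was used for immunoprecipitation, with 5 µl of antibody on 12 µg of chromatin, in 2 epithelium and 2 fiber samples. The samples are titled as day 1 after birth and give 150 pooled lenses each, whereas their protocol gives day 0.5 and the methods of the study give another number of lenses. Each sample is a pool of many animals, described in the methods as a biological replicate, and the permutation tests below measure the spread between these pools alone. In such bulk chromatin, a mark carried by fewer cells and a weaker mark in every cell cannot be told apart.

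Glycolysis splits glucose into pyruvate in the cytosol and yields ATP without mitochondria or oxygen. It opens with hexokinases, passes through phosphofructokinase, the most regulated step, and closes with pyruvate kinase, after which lactate dehydrogenase restores the NAD+ that the pathway uses. The lens has no blood vessels, maturing fibers remove their nuclei and mitochondria, and glycolysis is the main source of ATP in the lens. H3.3 is a variant of histone H3 that is placed into nucleosomes outside of DNA replication, often in transcribed genes and at their starts.

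The sequence just upstream of a transcription start carries part of the information that sets transcription. The 250 bases before 6 RefSeq starts of these genes are shown, because the results below ask whether islands lay over the starts of these genes. The 5′ start of Hk1, which had no island in any library, is among the 6. They are written 5′ to 3′ on the transcribed strand, from RefSeq on GRCm38, with capitals marking matches to ACGTG, the core bound by hypoxia-inducible factors, and to GGGCGG, a core bound by Sp family factors, or to their reverse complements. Where ACGTG lies in CACGTG, an E-box that reads alike on both strands, all of its letters are in capitals.
Hk2 (chr6:82774455-82774704, minus strand): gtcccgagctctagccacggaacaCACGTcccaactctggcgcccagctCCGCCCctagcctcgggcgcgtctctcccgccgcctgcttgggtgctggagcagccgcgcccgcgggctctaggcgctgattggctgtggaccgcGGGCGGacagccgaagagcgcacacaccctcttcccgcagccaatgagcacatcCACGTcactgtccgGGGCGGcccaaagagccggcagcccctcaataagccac
Ldha (chr7:46845554-46845803, plus strand): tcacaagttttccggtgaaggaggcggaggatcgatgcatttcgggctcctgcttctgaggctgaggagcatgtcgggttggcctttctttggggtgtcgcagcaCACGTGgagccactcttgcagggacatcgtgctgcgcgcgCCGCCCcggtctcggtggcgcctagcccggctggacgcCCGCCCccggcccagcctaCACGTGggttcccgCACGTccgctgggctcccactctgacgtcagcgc
Aldoa, inner start (chr7:126799255-126799504, minus strand): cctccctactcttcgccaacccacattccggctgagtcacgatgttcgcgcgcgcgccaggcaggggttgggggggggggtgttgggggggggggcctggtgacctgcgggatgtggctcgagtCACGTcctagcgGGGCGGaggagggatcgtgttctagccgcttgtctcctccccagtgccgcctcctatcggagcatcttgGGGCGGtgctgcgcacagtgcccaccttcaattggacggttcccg
Hk1, 5′ start (chr10:62379909-62380158, minus strand): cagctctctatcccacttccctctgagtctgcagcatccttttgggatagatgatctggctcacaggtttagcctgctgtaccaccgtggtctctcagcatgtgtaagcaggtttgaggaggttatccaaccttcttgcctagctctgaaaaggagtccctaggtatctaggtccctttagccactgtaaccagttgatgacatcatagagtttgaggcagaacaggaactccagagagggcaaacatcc
Eno1 (chr4:150236458-150236707, plus strand): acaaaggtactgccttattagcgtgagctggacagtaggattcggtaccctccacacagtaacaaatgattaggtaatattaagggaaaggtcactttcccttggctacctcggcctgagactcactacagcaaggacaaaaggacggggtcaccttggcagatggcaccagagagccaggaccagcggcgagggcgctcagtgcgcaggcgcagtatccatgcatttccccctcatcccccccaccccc
Gapdh (chr6:125165774-125166023, minus strand): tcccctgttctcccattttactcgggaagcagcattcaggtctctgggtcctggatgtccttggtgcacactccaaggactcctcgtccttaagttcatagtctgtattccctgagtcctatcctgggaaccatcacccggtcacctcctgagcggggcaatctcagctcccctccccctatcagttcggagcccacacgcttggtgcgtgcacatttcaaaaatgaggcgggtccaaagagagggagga

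Motifs were counted on both strands from 250 bases before to 50 bases after each RefSeq start, and overlapping matches were counted as 1 site. The Ldha start held 3 sites of ACGTG, 2 of them within CACGTG, and 3 of GGGCGG, and the Hk2 start held 2 sites of ACGTG and 3 of GGGCGG. Over 32851 mouse promoters of the same length, ACGTG was found in 19.6%, CACGTG in 7.15% and GGGCGG in 35.7%. TATAAA, the core of the TATA box, was found in 13.6% of them and in none of the 17 promoters of these genes. The 5′ start of Hk1 and the 5′-most of the 3 RefSeq starts of Eno1, both shown above, held none of the 4 motifs. The other Eno1 starts, 476 and 503 bp downstream of the GENCODE start, held 3 sites of GGGCGG each. The Gapdh start held 1 site of ACGTG, 42 bases downstream of the start. These matches describe the letters in the window and show no binding.

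The 4 lists differed in size. Epithelium lists held 10389 and 14434 islands covering 45.4 and 48.9 Mb, and fiber lists held 27059 and 35940 islands covering 178 and 188 Mb, so that fiber islands covered 3.88 times as many bases. Reads in islands numbered between 1331369 and 1430373 in epithelium and between 5041885 and 5359085 in fibers. The sequencing depth is not known, which leaves no interval or lower limit of detection, and a gene without an island is a gene at which none was called. The median island had 28.3 and 28.1 reads per kb in epithelium and 27.4 and 27.5 in fibers. All 6 fiber markers, among them Mip, Bfsp1, Bfsp2, Lim2 and Prox1, were covered more in both fiber libraries than in both epithelium libraries. But so were 5 of the 6 epithelium markers, all but Gja1, as well as 45.0% of all protein-coding genes and 69.7% of those with an island in any library. Summed over the 5 blood and vessel markers, the covered percentages came to 4.32 and 8.68 in epithelium and 20.9 and 32.8 in fibers, with no island at Hbb-bs or Ptprc. The 3 pigmented cell markers, of which Tyr had no island, summed to 0 in both epithelium libraries and to 9.46 and 19.5 in fibers. The 3 retina markers summed to 57.9 and 13.0 in epithelium and to 60.4 and 28.4 in fibers, with no island at Crx. The part of these differences in the values below was not tested.

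H3.3 islands covered more of the glycolysis genes in fibers than in epithelium. Summed over the 10 windows, which span 441 kb, islands covered 78.5 and 69.8 kb in the epithelium libraries and 180 and 181 kb in the fiber libraries. The fiber values were 2.43 times the epithelium values, a smaller ratio than the 3.88 of whole libraries. Both fiber libraries covered more of the window than both epithelium libraries in 8 of the 10 genes, all but Pfkp and Eno1, as they did in 45.0% of all protein-coding genes and in 69.7% of those with an island in any library. On the gene body alone the count was 7, with Eno1 added and Aldoa and Gapdh lost, against 38.3% of all protein-coding genes. No gene of the 10 was covered less in both fiber libraries, as were 0.671% of all protein-coding genes. With 2 libraries per compartment there are 6 ways to split them, and the two-sided exact permutation test of a gene cannot give a p below 0.333, the value of each of the 8 genes, and it gave 1 for Pfkp and Eno1.

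Taken over the 10 genes, the median covered share of the window came to 18.7% in epithelium replicate 1, 22.4% in epithelium replicate 2, 61.2% in fiber replicate 1 and 62.0% in fiber replicate 2. The median of the gene-wise differences between compartments was 27.5 percentage points. Over all protein-coding genes these medians were 0% and 0% in epithelium and 4.81% and 8.21% in fibers, with a median difference of 4.72 points. The genes without islands enter these medians as 0. Over the 5234 genes with an island in all 4 libraries, the medians were 21.1% and 20.8% in epithelium and 55.1% and 51.4% in fibers. Their median difference was 25.2 points. The 27.5 points above are over all 10 glycolysis genes, of which 8 had an island in all 4 libraries, so these medians are not over like sets.

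None of the 10 genes was without islands in all libraries, whereas 35.5% of all protein-coding genes had none. An island was present in every library at 8 of the genes, against 23.9% of all protein-coding genes. The exceptions were Gpi1, without an island in epithelium replicate 1, and Pfkp, with a single island in a single library.

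**Figure D1:**
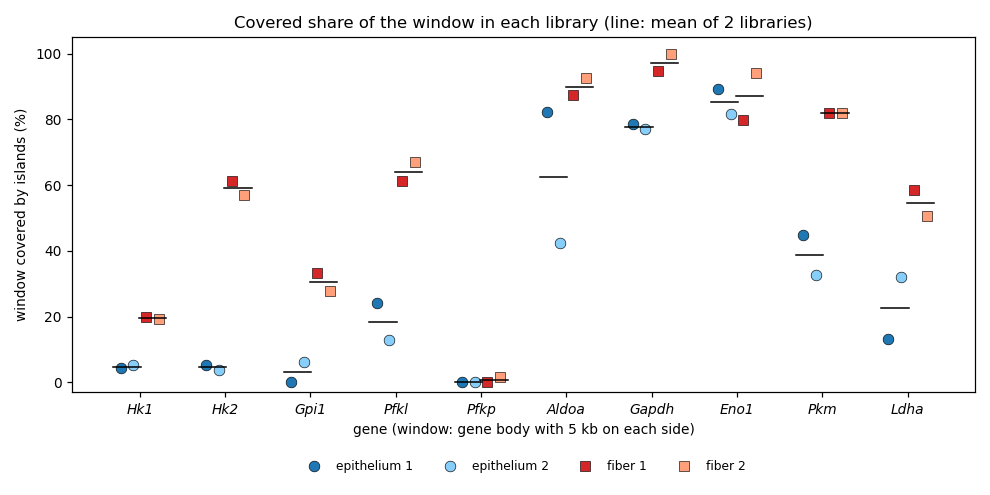
Share of each gene's window covered by H3.3 islands, in percent, with a circle for each epithelium library, a square for each fiber library and a line at the mean of the 2 libraries of a compartment. The squares lie above the circles in 8 genes, Eno1 is covered by 79.8% or more in every library, and Pfkp lies at or near 0.

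Hexokinases trap glucose in the cell by phosphorylation. Hk2, the isoform induced by insulin and hypoxia (chromosome 6, 82725025 to 82774454, minus strand), had the widest gap of the 10 genes between compartments. Its window was covered by 5.38% and 3.70% in the epithelium libraries, and by 61.2% and 56.9% in the fiber libraries. The means were 4.54% ± 1.19 and 59.1% ± 3.09 (SD, n = 2), a difference of 54.5 points, and the compartments did not overlap. Of all protein-coding genes, 95.2% had a smaller difference.

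Each epithelium library had a single Hk2 island near the 5′ end, of 3200 bp with 75 reads and of 2200 bp with 61 reads. That of epithelium replicate 1 began 2054 bp inside the gene, and that of replicate 2 came within 254 bp of the start. Fiber islands instead lay over the start, from -2946 to 2853 bp around it in replicate 1 and from -1546 to 2453 bp in replicate 2, negative positions being upstream. The largest fiber islands were intragenic, of 19400 bp with 573 reads and of 14000 bp with 467 reads. They were longer than 97.1% and 96.4% of the islands of their libraries. No other protein-coding gene lies in this window, and the fiber islands held 15.1 times as many reads as the epithelium islands, over 13.0 times as many bases. The ACGTG sites of the Hk2 promoter thus lay under an island in fibers alone.

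Hk1, the hexokinase of most tissues (chromosome 10, 62268855 to 62379908, minus strand), was covered sparsely. Islands held 4.30% and 5.29% of its window of 121054 bp in epithelium and 19.8% and 19.3% in fibers. The difference of 14.8 points exceeded the spread between replicates, which was 0.701 points in epithelium and 0.350 in fibers (SD, n = 2). It fell to 0.496 points, no longer with both fiber libraries above both epithelium libraries, once the same number of islands per library was taken by reads per kb.

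An inner start of Hk1 lay under an island in 3 of the 4 libraries. RefSeq gives Hk1 a 5′ start, which is that of GENCODE, and a start 39487 bp further in. The 5′ start had no island in any library, and its CpG content was 0.0507 of that expected from its base composition. The inner start, at 0.665 on the same scale, was covered in epithelium replicate 2 and in both fiber replicates, by islands with 124, 239 and 206 reads. Over the 32851 promoters the median of that ratio was 0.384. Another island, in the 3′ part of the gene and between 82908 and 91507 bp from the 5′ start, was present in all 4 libraries, and it was the single Hk1 island of epithelium replicate 1.

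**Figure D2:**
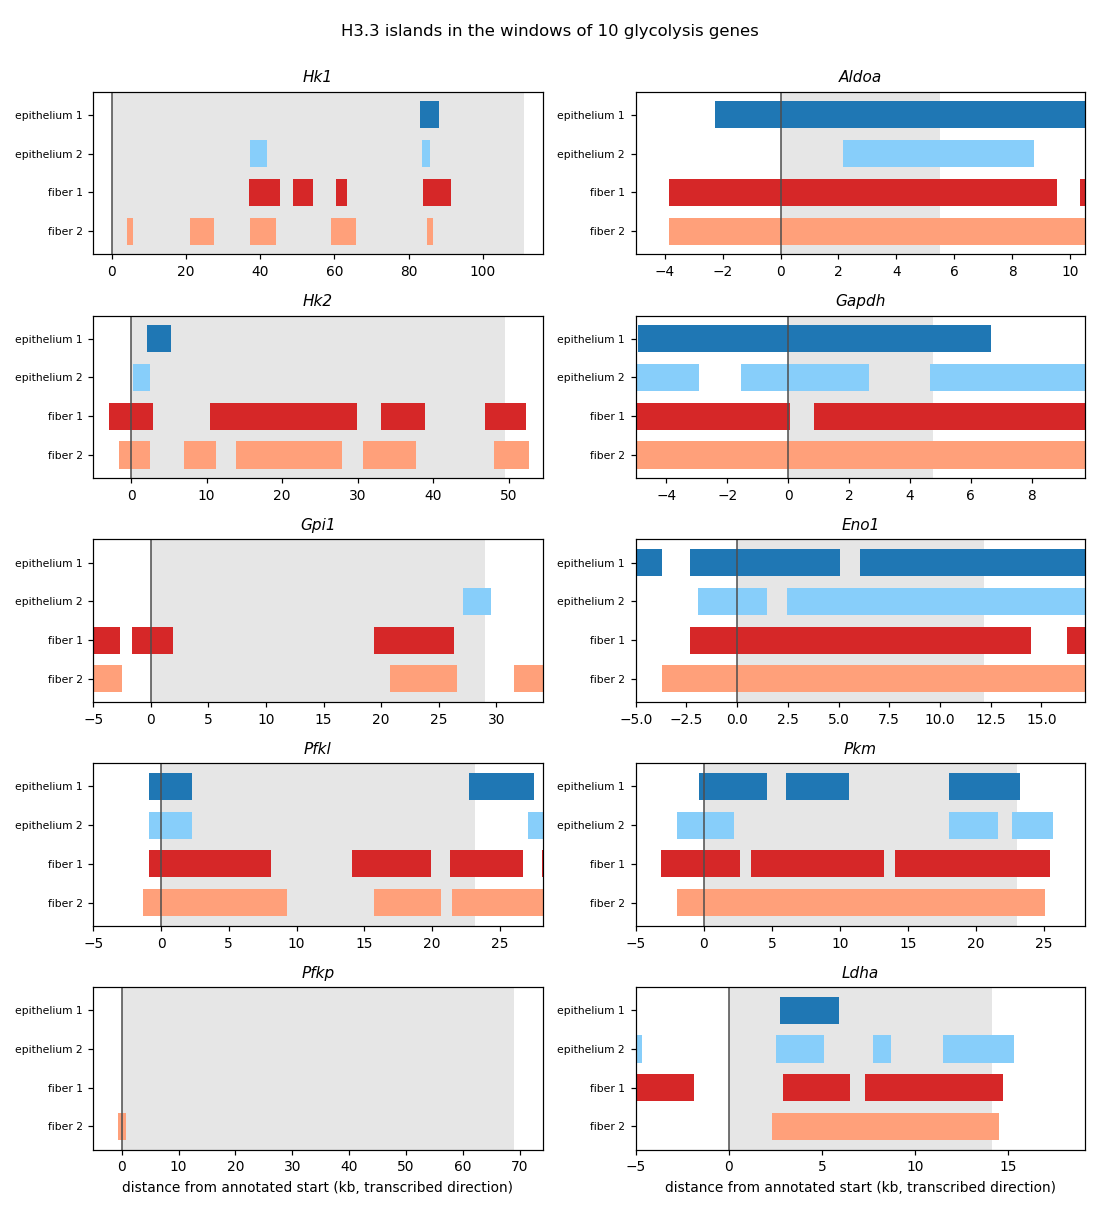
Islands in the window of each gene, as bars, by distance from the annotated 5′ start in kb in the direction of transcription, with the gene body shaded, 5 kb shown on either side and 1 row per library. Fiber bars run along most of Hk2, Pfkl, Aldoa, Gapdh, Eno1 and Pkm, while the epithelium bars at Hk2 and Pfkl sit near the gene's ends.

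Gpi1, which turns glucose 6-phosphate into fructose 6-phosphate (chromosome 7, 34201330 to 34230336, minus strand), had no island in epithelium replicate 1 and 6.15% coverage in epithelium replicate 2. Coverage was 33.2% and 27.7% in fibers, a difference of 27.4 points with SDs of 4.35 and 3.86 points (n = 2). With island numbers made equal between libraries by reads per kb it was 2.99 points, and here too the fiber libraries were not both above epithelium. The fiber libraries had in common an intragenic island of 7000 bp with 171 reads and of 5800 bp with 163 reads, between 19336 and 26535 bp from the start. The start itself lay under an island in fiber replicate 1 only. Of the other fiber islands, 1 in each replicate overlapped the neighbour 4931406P16Rik upstream and 1 in replicate 2 overlapped Pdcd2l downstream. On the gene body alone the values were 0% and 6.45% in epithelium and 30.8% and 19.995% in fibers.

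Phosphofructokinase commits sugar to glycolysis, and its 2 genes among the 10 differed in coverage. Pfkl, the liver-type subunit (chromosome 10, 77986947 to 78010083, minus strand), was covered by 24.1% and 12.8% in epithelium and by 61.1% and 67.2% in fibers, a difference of 45.6 points without overlap, with SDs of 7.99 and 4.27 points (n = 2). Both epithelium libraries had an island with identical borders over the start, of 3200 bp with 100 reads in each. In fibers the island over the start reached 8082 and 9282 bp into the gene, with 294 and 315 reads, and further islands lay in its 3′ part. Islands past the 3′ end, in every library, also overlapped the neighbour 1810043G02Rik.

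Pfkp, the platelet-type subunit (chromosome 13, 6579768 to 6648777, minus strand), was without an island in both epithelium libraries and in fiber replicate 1. Fiber replicate 2 had 1 island of 1400 bp with 51 reads over its start, which was 1.77% of the window. At 36.4 reads per kb, this short island was denser than 93.35% of the islands of its library. The Pfkp promoter held 4 sites of GGGCGG and had a CpG ratio of 0.678, above the median of 0.384 over all promoters.

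Aldoa, which encodes the aldolase of muscle and of most other tissues and splits the phosphorylated sugar, lies in a dense stretch of genes (chromosome 7, 126795234 to 126800751, minus strand). Its window was covered by 82.3% and 42.5% in epithelium and by 87.4% and 92.6% in fibers. The epithelium replicates differed by more than epithelium replicate 1 differed from fibers, and although the compartments did not overlap, the difference of 27.6 points was less than the SD of epithelium, 28.1 points (n = 2). On the gene body the values were 100% and 61.0% in epithelium and 100% in both fiber libraries, so that the compartments met at 100%. The difference in the window was 7.73 points without epithelium replicate 2 and 47.5 points without epithelium replicate 1. Epithelium replicate 1 had an island of 16800 bp with 508 reads over the whole gene, while that of replicate 2 was 6600 bp long with 204 reads, began 2151 bp inside and left the start uncovered. The fiber islands over the gene were 13400 bp and 32600 bp long, with 488 and 1084 reads. These islands also overlapped Ppp4c and Fam57b. That of fiber replicate 2 overlapped 5 other protein-coding genes, so that its reads cannot be assigned to Aldoa. All 3 RefSeq starts of Aldoa lay under an island in epithelium replicate 1 and in both fiber replicates.

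Gapdh, whose enzyme makes the NADH of glycolysis (chromosome 6, 125161715 to 125166467, minus strand), was covered widely in both compartments, by 78.6% and 77.0% in epithelium and by 94.6% and 100% in fibers. The difference was 19.5 points, larger than the SDs of 1.18 and 3.83 points (n = 2). The gene body alone was covered by 100% and 57.9% in epithelium and by 83.2% and 100% in fibers. Here the compartments overlapped, with a difference of 12.6 points, and with 1 kb on each side the difference was 8.88 points. The annotated 5′ start lay under an island in all 4 libraries. In fiber replicate 1 the island over it ended 66 bp inside the gene and the next began at 867 bp, and the RefSeq start, 694 bp inside, fell into this gap of 800 bp. Of the 45 gaps between neighbouring islands in the 10 windows, 6 were of this size, which is the smallest that occurred with the caller's gap setting of 600 bp and windows of 200 bp, and 5 of the 6 were in fiber replicate 1. In fiber replicate 2 a single island of 31200 bp with 1029 reads covered the window. It also overlapped 3 neighbouring genes, Nop2, Iffo1 and Ncapd2. Stretches of 75 nt, the read length, that occur more than once in the genome made up 17.5% of the Gapdh body and 20.9% of its exons, with exon matches at 115 other loci, and reads from these stretches cannot be placed on 1 copy. Between 0 and 2 of those loci lay under an island, depending on the library.

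Eno1, the α-enolase (chromosome 4, 150236721 to 150248879, plus strand), was covered widely in both compartments, its window by 89.2% and 81.6% in epithelium and by 79.8% and 94.2% in fibers. For the window, the difference of 1.62 points was within the spread, with SDs of 5.36 and 10.2 points (n = 2), and the compartments overlapped. Its sign turned when a single library was left out, to -2.17 points without epithelium replicate 2 and to -5.60 points without fiber replicate 2. The gene body itself was covered by 91.8% in both epithelium libraries and by 100% in both fiber libraries, a difference of 8.22 points without overlap. In epithelium replicates 1 and 2, 99.7% and 99.5% of protein-coding genes were covered less than Eno1. Long islands lay in every library, such as 17400 bp with 538 reads in epithelium replicate 2 and 25400 bp with 863 reads in fiber replicate 2, and no other protein-coding gene lies in the window. Summed over the islands of the window there were 680 and 622 reads in epithelium and 772 and 863 in fibers, 1.26 times as many, the lowest ratio of the genes with islands in every library. Repeated stretches made up 5.91% of the gene body and 15.4% of the exons, with 6 other loci, none under an island.

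Pkm, the pyruvate kinase of muscle and of proliferating cells (chromosome 9, 59656368 to 59679375, plus strand), was covered by 44.8% and 32.7% in epithelium and by 81.8% in both fiber replicates, a difference of 43.0 points, beside an SD of 8.57 points in epithelium (n = 2). Islands in epithelium lay over the start, over the 3′ part and, in replicate 1, between them, with 433 and 298 reads in all. In fibers they ran over nearly the whole gene. Fiber replicate 2 had 1 island of 27000 bp with 977 reads, and fiber replicate 1 had 3 islands with 916 reads and the same summed length, parted by 2 gaps of 800 bp. The 3′-most islands also reached the neighbour Gramd2 in epithelium replicate 2 and in both fiber replicates. Both RefSeq starts lay under an island in all 4 libraries.

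Ldha, whose enzyme subunit turns pyruvate into lactate (chromosome 7, 46841475 to 46855627, plus strand), was covered by 13.2% and 32.0% in epithelium and by 58.5% and 50.5% in fibers, a difference of 31.9 points without overlap, with SDs of 13.3 and 5.64 points (n = 2). The 5′ start of GENCODE had no island in any library. The RefSeq start with the E-boxes shown above lies 4329 bp downstream of it and was under an island in all 4 libraries, with 115 and 77 reads in epithelium and 100 and 345 in fibers. These islands were 3200 and 2600 bp long in epithelium and 3600 and 12200 bp long in fibers, and that of fiber replicate 2 ran on to the end of the gene. At this start the epithelium and fiber replicate 1 islands were thus of similar length. Past it, further islands lay in epithelium replicate 2 and fiber replicate 1, and none in epithelium replicate 1. A further RefSeq start, 5607 bp downstream of the GENCODE start, was under an island in all libraries but epithelium replicate 2.

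Counted from the 5′ end of GENCODE, the start lay under an island in both epithelium libraries in 4 of the 10 genes (Pfkl, Gapdh, Eno1 and Pkm), against 6.83% of all protein-coding genes. These 4 starts were covered in all 4 libraries, as were 6.16% of all starts. In both fiber libraries the start was covered in 6 genes, these 4 with Hk2 and Aldoa, against 31.4%. Over the RefSeq starts of 16522 genes, a choice made after seeing the data, 5 genes had a start covered in both epithelium libraries (background 7.86%), 7 in both fiber libraries (34.6%) and 4 in all libraries (7.18%). Under that choice Hk1 and Ldha entered the fiber count through their inner starts, and Gapdh left it through the gap in replicate 1. At the other end, the last base of the gene was under an island in both epithelium libraries in 4 of the 10 genes (Aldoa, Gapdh, Eno1 and Pkm), against 4.80% of all protein-coding genes, and in both fiber libraries in 7, these 4 with Hk2, Pfkl and Ldha, against 17.4%.

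Reads per kb of island were compared at the 8 genes with islands in every library. They are raw values that carry the depth of each library, which is unknown. The median ratio of fiber to epithelium was 1.08, beside 1.02 over the 5234 genes with islands in every library, whereas the ratio of summed coverage given above was 2.43. Both fiber libraries lay above both epithelium libraries in 4 of the 8 genes (Hk2, Aldoa, Eno1 and Pkm), against 30.8% of the 5234 genes, and below them in 1, Ldha, against 16.2%.

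Pkm had the highest ratio, 1.23, with 29.3 and 27.6 reads per kb in epithelium and 33.9 and 36.2 in fibers. Its fiber values were above those of 89.5% and 92.9% of the islands of their libraries. Hk2 had 23.4 and 27.7 reads per kb in epithelium and 28.4 and 30.1 in fibers, a ratio of 1.14. Eno1, whose window coverage overlapped between compartments, had 30.6 and 29.9 reads per kb in epithelium and 31.4 and 34.0 in fibers, a ratio of 1.08, and there was no overlap. Aldoa had 30.2 and 30.9 reads per kb in epithelium and 33.1 and 33.3 in fibers. The value of fiber replicate 1 includes a neighbouring island of 17800 bp with 544 reads, of which 167 bp lay in the window. The island of that replicate over Aldoa had 36.4 reads per kb. The value of fiber replicate 2 is that of the island that overlapped 5 other protein-coding genes.

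Ldha went the other way. It had 35.9 and 30.3 reads per kb in epithelium and 25.3 and 28.3 in fibers, a ratio of 0.809, although its islands covered more of the window in fibers. The value of fiber replicate 1 includes an island upstream of the gene, of 4400 bp with 22.3 reads per kb. That of epithelium replicate 2 includes an upstream island of 1400 bp with 33.6 reads per kb, of which 326 bp lay in the window. Islands touching the gene had 29.6, 45.0 and 25.8 reads per kb in epithelium replicate 2 and 27.8 and 25.9 in fiber replicate 1. The single Ldha island in epithelium replicate 1, over the inner start, was denser than 94.0% of the islands of that library. Repeated stretches made up 3.47% of the Ldha exons, with 31 other loci, of which between 1 and 4 lay under an island.

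**Figure D3:**
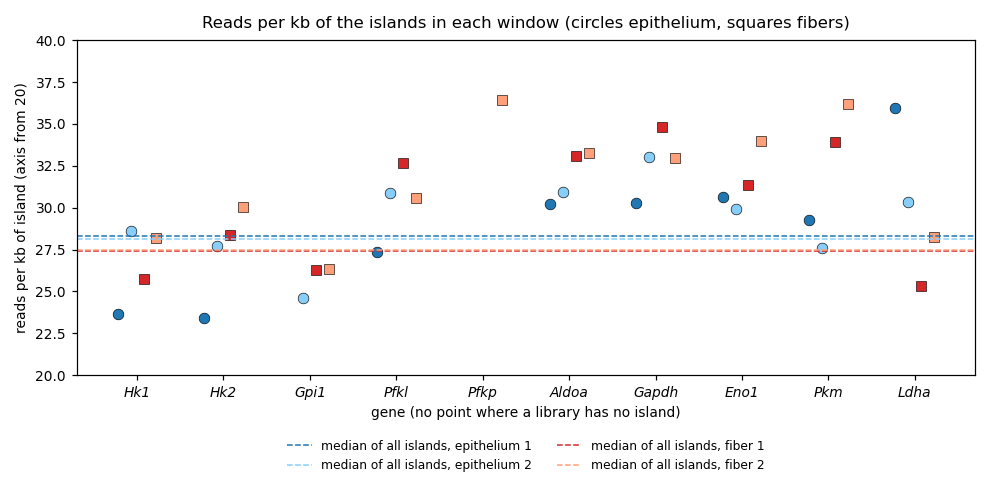
Reads per kb of the islands in each window, with circles for epithelium and squares for fiber libraries, and dashed lines at the median over all islands of a library. The axis starts at 20 reads per kb. The squares lie above the circles at Hk2, Aldoa, Eno1 and Pkm and below them at Ldha.

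The number of islands differs between the lists, and the comparison was repeated with the same number from every library, 10389. Taken by read count, 8 of the 10 genes were covered more in both fiber libraries, against 21.4% of all protein-coding genes. Taken by reads per kb, 5 genes were (Hk2, Pfkl, Aldoa, Gapdh and Pkm), against 15.6% of all protein-coding genes. Both shares count the 35.5% of genes without an island in any library, whereas all 10 genes had islands. With islands taken by reads per kb, the difference of Ldha, fibers minus epithelium, turned to -14.8 points, and those of Hk1 and Gpi1 fell to 0.496 and 2.99 points.

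Other genes of glucose metabolism were taken from 3 lists. Of 19 other glycolytic enzymes, 12 were covered more in both fiber libraries and none in both epithelium libraries. For 12 regulators these counts were 7 and 0, and for 7 enzymes of gluconeogenesis 2 and 0. The shares over all protein-coding genes were 45.0% and 0.671%. Of the genes with an island in any library, 12 of 15 enzymes, 7 of 10 regulators and 2 of 4 enzymes of gluconeogenesis were covered more in both fiber libraries, beside 69.7% over all such genes. Aldoc, the brain aldolase, was covered by 20.3% and 32.6% in epithelium and by 100% and 77.2% in fibers. Pgam2, the muscle phosphoglycerate mutase, had 51.3% and 28.1% in epithelium and 100% in both fiber libraries. The compartments did not overlap in either of these genes, and each window also holds at least 1 other protein-coding gene.

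At the lower end stood Pdk2, a kinase that inhibits pyruvate dehydrogenase, with 61.9% and 87.7% in epithelium and 63.0% and 46.0% in fibers, which overlapped. Pck2 and Pklr had a single island each, in epithelium replicate 2. Some isozymes differed in whether they had islands at all. Beside Gapdh and Ldha, no island was called in any library at Gapdhs, the sperm form, or at Ldhb, the heart subunit of lactate dehydrogenase. Pgk1, a phosphoglycerate kinase, had a single island, in fiber replicate 2, over 12.8% of its window and 1.81% of its gene body. No island was called in any library at Pgk2, the testis phosphoglycerate kinase. The same held for Pfkfb1 and Pdk3 among the regulators and for Fbp1, Fbp2 and G6pc, which act in gluconeogenesis.

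Other enzymes of the pathway also had islands in every library. Tpi1, the triosephosphate isomerase, was covered by 26.3% and 59.8% in epithelium and by 97.8% and 86.8% in fibers. Pgam1, a phosphoglycerate mutase, had 55.0% and 22.7% against 88.8% and 68.5%, and the enolases Eno2 and Eno3 had 26.5% and 24.2% against 59.9% and 47.6%, and 86.9% and 81.7% against 100% in both. In each of these 4 genes the fiber values lay above the epithelium values. The same held for 45.0% of all protein-coding genes and 69.7% of those with an island in any library. Each of the 4 windows also holds at least 1 other protein-coding gene, so the coverage is not that of the enzyme gene alone. Smaller differences without overlap were found at Hkdc1, a gene related to the hexokinases (4.05 points), Pfkfb4, whose enzyme makes an activator of phosphofructokinase (7.50 points), and Pcx, the pyruvate carboxylase (13.3 points), which also had islands in all 4 libraries.

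**Figure D4:**
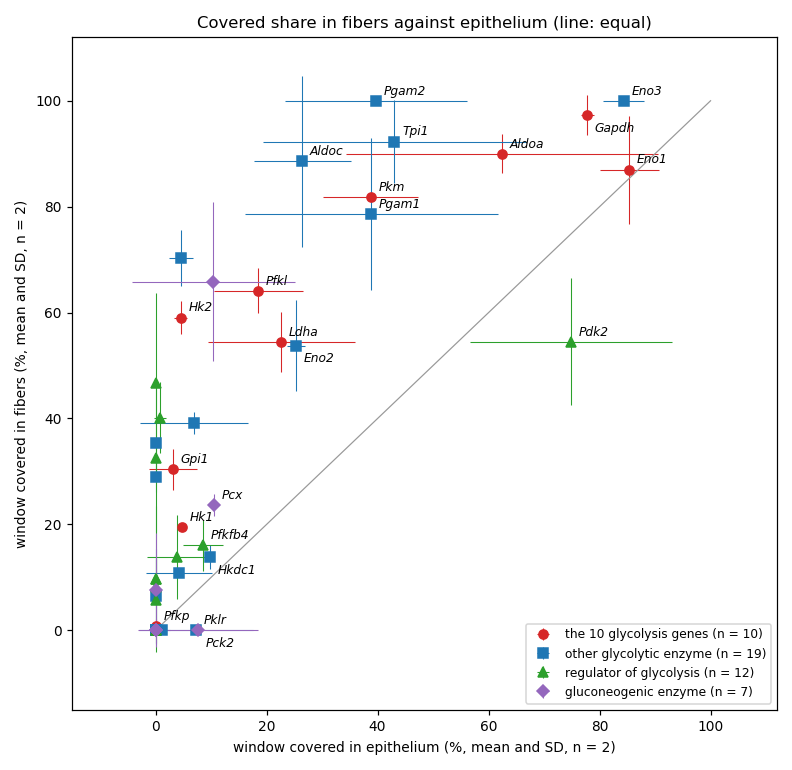
Mean covered share of the window in fibers against that in epithelium, in percent with SD bars (n = 2), for the 10 genes and 3 lists of other genes of glucose metabolism, with a grey line where both are equal. Hk2 and Pgam2 lie far above the line, Eno1 lies near it, and Pdk2 lies below it.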

How the data were processed

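H3.3 ChIP-seq was taken from 4 libraries, 2 of lens epithelium and 2 of lens fibers. The authors mapped 75-nt single-end reads to mm10 with BWA at its default settings and ran SICER2 on each library for islands (window 200 bp, gap 600 bp, false discovery rate 0.01). The deposited lists hold the start, the end and the read count of each island, and the counts are raw. Tool versions, the handling of duplicates and the use of the input in calling are not given in the sources used here. The pooled input and the bisulfite libraries were not analysed here.

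Windows were the GENCODE vM21 gene body with 5 kb on each side, and an overlap of 1 bp sufficed. Covered percent is the share of window bases under islands. Reads per kb is the summed count of the overlapping islands, whole, divided by their summed length. Aldoa has 2 entries in GENCODE, of which the entry overlapping the RefSeq gene was used. Positions count from 1. RefSeq promoters matched all 10 genes, with 17 starts.

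Groups and replicate numbers came from the sample titles. Values were compared between compartments by exact permutation. Samples with the same replicate number were not treated as pairs. The differences between replicates 1 and 2 correlated by 0.00558 between compartments over 14126 genes. This value cannot show whether samples with the same number came from the same lenses. The alternatives changed the window (gene body, 1 kb, 20 kb), the islands (at least the median reads per kb, the same number per library, at least 2000 bp), the overlap (50%), the scaling of reads and the libraries.

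The 10 genes and all lists were chosen with earlier results of these data known. All 10 are named, and of other pathway genes the 3 largest and 3 smallest differences and those with islands in all libraries, genes without any island being named by list. Pgk1 is named in addition, beside Pgk2. Some genes of these lists are not reported here. Scripts used numba 0.67.0, scipy 1.17.1 and numpy 2.4.6 under Python 3.11.15, with matplotlib 3.10.9 for the plots, and the overlap steps were tested on simulated data.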

Additional observations from a re-analysis of the deposited data

How the results depend on the processing

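The median difference in covered share over the 10 genes, 27.5 percentage points, was 20.8 on the gene body alone, 21.2 with 1 kb and 20.01 with 20 kb on each side, 22.2 with islands at or above the median reads per kb of their library, 20.1 with equal numbers of islands by read count and 13.4 by reads per kb. Leaving out 1 library gave between 23.4 and 27.6. The count of genes covered more in both fiber libraries, 8, was 5 with equal numbers by reads per kb and between 7 and 10 under the other choices, being 10 without fiber replicate 1 and with 20 kb. With equal numbers by reads per kb it lost Hk1, Gpi1 and Ldha, and on the gene body Aldoa and Gapdh were lost and Eno1 was gained. Of 130 recomputed gene-wise differences, 123 were positive, 3 were 0 and 4 were negative, of which 3 at Eno1 and 1 at Ldha (-14.8, equal numbers by reads per kb). For each gene they include the value with the replicate number as a block, which equals the main value by construction.

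The median ratio of reads per kb, 1.08, was 1.13 with equal numbers by reads per kb, between 1.05 and 1.13 without 1 library, and 0.287 once reads were divided by the library's total in islands, a divisor that grows with the covered length. The 4 starts under an island in both epithelium libraries became 2 with islands of at least the median reads per kb and 2 with equal numbers by reads per kb. Taking the replicate number as a block leaves the median difference at 27.5 by construction, which tests nothing. Its exact sign-flip test over 2 pairs cannot go below p = 0.5. The titles give the samples only a shared replicate number, and whether they came from the same lenses is not known. Counts of genes with an island in both libraries of a compartment stayed within 1.5 times their value under every choice run. The number of libraries and the unknown depth limit the precision of every value.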
